A study of Mus musculus with 4 samples.

Results

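In primed epiblast-like cells (EpiLC), 323 Pcbp1 peaks lay at an end of a single protein-coding gene where no peak of naive embryonic stem cells overlapped. They were chosen from 3494 EpiLC peaks by 2 conditions. The peak shared no base with any of the 12132 Naive peaks, and its summit was at most 1 kb from the start or stop of 1 gene, and of no other, in the RefSeq annotation of the mouse build GRCm38.p6. Both conditions were read from the peak lists, so the presence of a peak in EpiLC and the lack of one in Naive are how the peaks were picked and not a finding. The peaks made up 9.24% of the EpiLC list and marked 315 of 21883 protein-coding genes (1.44%). Another 561 EpiLC peaks at single gene ends overlapped a Naive peak (shared peaks, 543 genes, 2.48%), and 2424 Naive peaks at single gene ends had no EpiLC overlap (Naive-only peaks, 2262 genes, 10.3%).

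All cells were of the mouse embryonic stem cell line E14 Tg2a, kept for 3 passages without serum in N2B27 with LIF and the 2 inhibitors PD0325901 (1 uM, against MEK) and CHIR99021 (3 uM, against GSK3). EpiLC were made from these cells on fibronectin in N2B27 with 12 ng/ml bFGF, 20 ng/ml Activin A and 1% KOSR over 48 hours, and naive cells were those still in the inhibitor medium. Chromatin sheared to around 500 bp was precipitated with a single Pcbp1 antibody, and each condition had 1 ChIP and 1 input library. A condition was therefore 1 library from 1 line, no test between conditions was possible, and the intervals below are 95% intervals that cover counting error only. A position with no Naive peak is one where the authors' caller made no call, which does not show that Pcbp1 was absent. Peaks give no RNA level, so the state of the cells could not be checked on marker expression.

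Pcbp1 (also known as hnRNP E1) is a KH-domain protein that binds runs of cytosine in RNA and in single-stranded DNA, takes part in splicing, translation and transcription, and also delivers iron to proteins. EpiLC stand for the epiblast soon after implantation: naive factors such as Klf4 and Esrrb are lost, while Fgf5, Pou3f1, Otx2 and Dnmt3b come up under FGF and Activin signals. At this stage promoters of lineage regulators are largely silent but held ready, many of them in long CpG-rich stretches.

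The DNA under the peaks is shown first, because several of the strongest peaks carried the same short word. RefSeq promoter windows of 300 bases (250 before and 50 after a transcript start) were available for 230 of the 315 genes, and the sequences below are the parts of those windows around the word GGGTTAA or its complement. Each is printed 5' to 3' on the strand of the gene, in build GRCm38.p6, with the word in capitals. All 9 lay in the peak named and are those with the highest fold enrichment among peaks that carried the word, outside promoters repeated elsewhere in the genome.
Zfp629 (chr7:127615290-127615350, minus strand): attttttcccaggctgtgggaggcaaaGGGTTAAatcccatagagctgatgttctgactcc
Hrk (chr5:118169563-118169623, plus strand): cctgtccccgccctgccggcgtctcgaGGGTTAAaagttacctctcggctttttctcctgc
Ddx3y (chrY:1286723-1286783, minus strand): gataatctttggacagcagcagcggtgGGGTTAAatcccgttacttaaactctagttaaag
Ccdc120 (chrX:7741356-7741416, minus strand): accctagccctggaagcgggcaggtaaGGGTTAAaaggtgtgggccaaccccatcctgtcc
Ltbp2 (chr12:84876606-84876666, minus strand): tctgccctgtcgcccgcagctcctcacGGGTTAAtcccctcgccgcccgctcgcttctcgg
Bmp5 (chr9:75775261-75775321, plus strand): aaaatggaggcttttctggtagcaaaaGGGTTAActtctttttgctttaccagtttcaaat
Map3k21 (chr8:125910233-125910293, plus strand): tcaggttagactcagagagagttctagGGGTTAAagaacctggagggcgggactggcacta
Ntf3 (chr6:126166933-126166993, minus strand): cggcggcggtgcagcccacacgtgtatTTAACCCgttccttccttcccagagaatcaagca
Chad (chr11:94564922-94564982, plus strand): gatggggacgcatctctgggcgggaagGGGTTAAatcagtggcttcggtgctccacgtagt

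Zfp629 encodes a zinc finger protein, Hrk a pro-apoptotic BH3-only protein, Ddx3y a Y-linked RNA helicase, Ltbp2 a matrix protein related to the latent TGF-beta binding proteins, Bmp5 a bone morphogenetic protein, Map3k21 a kinase, Ntf3 the neurotrophin NT-3, and Chad the cartilage protein chondroadherin. In Ntf3 the word lay on the strand opposite to the gene, so the complement TTAACCC is in capitals, and in the other 8 it read in the direction of the gene. Over all EpiLC-only peaks that carried it, the next base was A in 8 of 17.

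For contrast, 4 peaks whose promoter part did not hold the word are given. They are the highest of those with at least 80 peak bases in the window upstream of the start, and the 80 such bases nearest the summit are printed. Prdm11, the highest of all EpiLC-only peaks, was one of them. The summits at Prdm11 and Gpr4 lay 377 and 271 bp upstream of the start, outside the promoter window. The bases under these summits were therefore not searched, and the word may or may not be there.
Prdm11 (chr2:93046336-93046415, minus strand): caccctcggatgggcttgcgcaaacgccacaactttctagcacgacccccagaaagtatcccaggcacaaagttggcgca
Dennd2a (chr6:39558005-39558084, minus strand): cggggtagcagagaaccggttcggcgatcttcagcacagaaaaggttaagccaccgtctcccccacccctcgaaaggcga
Cnrip1 (chr11:17051779-17051858, plus strand): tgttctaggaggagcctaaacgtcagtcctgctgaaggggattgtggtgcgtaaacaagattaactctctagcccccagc
Gpr4 (chr7:19212288-19212367, plus strand): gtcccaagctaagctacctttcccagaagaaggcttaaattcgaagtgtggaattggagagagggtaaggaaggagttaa

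The word was picked after these sequences were read, so its frequency is a description and was not tested. Among peaks with at least 80 bases inside a promoter window, repeated promoters left out, it stood in 17 of 55 EpiLC-only peaks (30.9%, exact binomial interval 19.1 to 44.8), 26 of 180 shared peaks (14.4%, 9.66 to 20.4) and 10 of 901 Naive-only peaks (1.11%, 0.534 to 2.03). The median length of these promoter parts was 194 bases in EpiLC-only, 212 in shared and 223 in Naive-only peaks. Of all 21262 whole promoter windows of coding genes, 489 held it (2.30%). The intervals of the EpiLC-only and shared peaks overlapped. No interval takes account of the word having been picked from EpiLC-only peaks, so the intervals do not measure a difference between the sets. A similar word, TTAGGG, stood in 2 of 55 EpiLC-only, 13 of 180 shared and 71 of 901 Naive-only peaks and in 10.5% of all windows. Runs of CCCCC stood in 58.2% of EpiLC-only, 50.6% of shared and 41.8% of Naive-only promoter parts, and in 54.9% of whole windows.

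**Figure D1:**
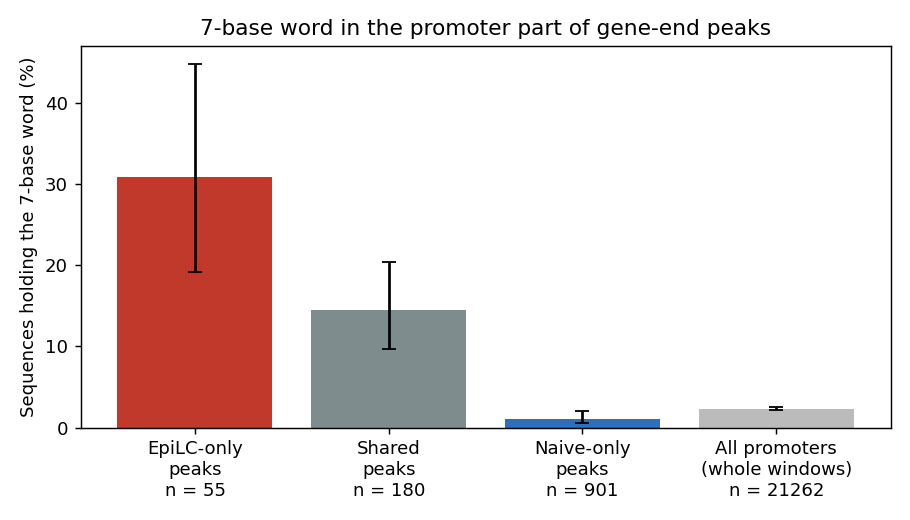
Share of promoter sequences that held the 7-base word on either strand (y axis, percent), for the promoter part of EpiLC-only, shared and Naive-only gene-end peaks and for all whole promoter windows; bars start at 0, error lines are 95% exact binomial intervals, and n is the number of sequences. The share was 30.9% in EpiLC-only peaks, 14.4% in shared peaks, 1.11% in Naive-only peaks and 2.30% in all windows. The word was picked from EpiLC-only sequences, which the error lines do not take into account.

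Within the EpiLC-only peaks the distance of the word from the point of highest signal was measured. Only peak bases inside the promoter window were searched, which bounds this distance in advance. It was not measured for other words or other peak sets, so the values are a description. The centre of the word was 3 to 80 bp from the summit, with a median of 21 bp, and 12 of 17 copies lay within 50 bp. Its orientation followed that of the gene in 15 of 17 EpiLC-only peaks (88.2%, 63.6 to 98.5), 22 of 26 shared peaks (84.6%, 65.1 to 95.6) and 3 of 10 Naive-only peaks, and in 299 of 494 matches over all windows (60.5%), where a window is counted once for each strand that holds the word. Fold did not separate the carriers: the word was in 8 of 24 peaks with a fold of at least 4 and in 9 of 31 peaks below it. The other carriers, at lower fold, were Uqcc1 (3.67), Etv3l (3.46), Axl (3.44), Mip (3.30), Flrt2 (3.24), Zkscan4 (3.04), Abhd14b (2.91) and Serpinf1 (2.28), which include a receptor tyrosine kinase (Axl), a lens water channel (Mip) and a secreted serpin (Serpinf1).

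The word was also counted in the shared peaks, which are not the peaks it was picked from. Their EpiLC to Naive fold ratio uses the same peak lists that defined the EpiLC-only peaks. The ratio is therefore a description and not independent evidence. Shared promoter peaks with the word had a median fold of 5.92 in EpiLC and 6.26 in Naive, and a median EpiLC to Naive ratio of 0.875 (quartiles 0.645 and 1.18, n = 26). Shared promoter peaks without it had medians of 3.40 in EpiLC and 6.19 in Naive, and a ratio of 0.575 (0.436 and 0.749, n = 154). Of the 21 shared peaks whose EpiLC fold was at least their Naive fold, 11 held the word (52.4%). Of the 159 whose EpiLC fold was lower, 15 did (9.43%). Peaks of both kinds come from the same pair of libraries, and promoters that share a word may share other features, whose part was not tested.

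By fold enrichment, the EpiLC-only peaks were mostly modest. The fold is the authors' value for each peak, the summit coverage over the caller's background with 1 added to both. Its median was 3.37 (quartiles 2.97 and 4.0, range 1.57 to 10.4), against 3.42 (2.81 and 4.2, up to 26.7) for shared gene-end peaks in the same EpiLC library. A fold of at least 4 was reached by 81 of 323 EpiLC-only peaks (25.1%) and 29.1% of shared peaks, and a fold of at least 5 by 35 (10.8%) and 15.5%. The distributions crossed: the EpiLC-only peaks had the higher lower quartile, and the shared peaks had the higher upper quartile and maximum. Median coverage at the summit was 40 fragments in EpiLC-only and 52 in shared peaks, over a background of 10.6 and 14.2, and median width was 290 and 341 bp. EpiLC-only peaks away from coding gene ends (n = 1445) had a median fold of 3.54 and a median width of 288 bp.

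**Figure D2:**
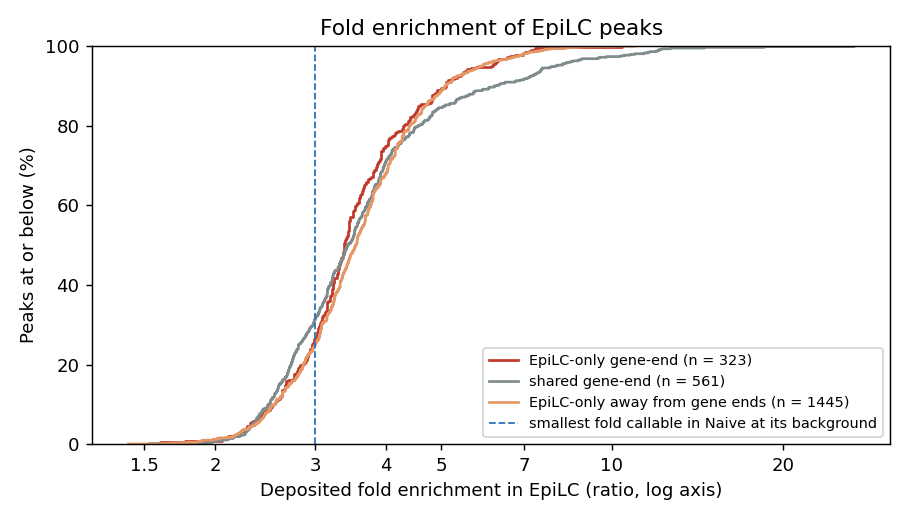
Cumulative share of EpiLC peaks (y axis, percent) at or below a deposited fold enrichment in EpiLC (x axis, ratio, log axis), for EpiLC-only gene-end peaks, shared gene-end peaks and EpiLC-only peaks away from gene ends; the dashed line is the smallest fold callable in Naive at its lowest background. The curves ran close together around medians of 3.37, 3.42 and 3.54, and the shared peaks reached the highest folds.

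The strongest EpiLC-only peak was that at Prdm11, a PR-domain zinc finger gene (chromosome 2, 93046323 to 93046767). It had a summit coverage of 118 fragments and a fold of 10.4 (8.62 to 12.4), and its summit lay 377 bp from the gene start with the nearest Naive peak 205903 bp away. The next was Foxe3, a forkhead factor of the lens, at 7.83 (6.07 to 9.94). Below it were Zfp629 at 7.20, the glycine receptor subunit gene Glra1 at 7.14 and Sall2, a spalt-like zinc finger factor, at 7.02 (5.45 to 8.90). Neighbours in this order, Prdm11 and Foxe3 included, had overlapping counting intervals, so their order is not settled.

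Others of the 25 highest were the calcium-activated potassium channel gene Kcnn2 (6.98), the cannabinoid receptor-interacting protein gene Cnrip1 (6.29), the calmodulin-dependent kinase gene Camk1g (5.56) and the melanin-concentrating hormone receptor gene Mchr1 (5.34). Signalling and surface genes among them were Eda, the ligand ectodysplasin (6.76), Gpr4, a proton-sensing receptor (6.26), Fat4, a giant protocadherin (6.21), Dgkz, a diacylglycerol kinase (6.13), and Thy1, a surface glycoprotein of fibroblasts and neurons (5.43). Caml, which acts in the insertion of tail-anchored proteins, reached 6.62, the pro-apoptotic Hrk 6.54 and Dennd2a, a Rab exchange factor, 6.29. Others were Arxes2 (6.52), Arxes1 (5.77), 1110032F04Rik (5.65), the basic helix-loop-helix factor gene Bhlhe23 (5.51), the Arf GTPase-activating gene Asap1 (5.47) and the DNA repair gene Trp53bp1 (5.47).

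**Figure D3:**
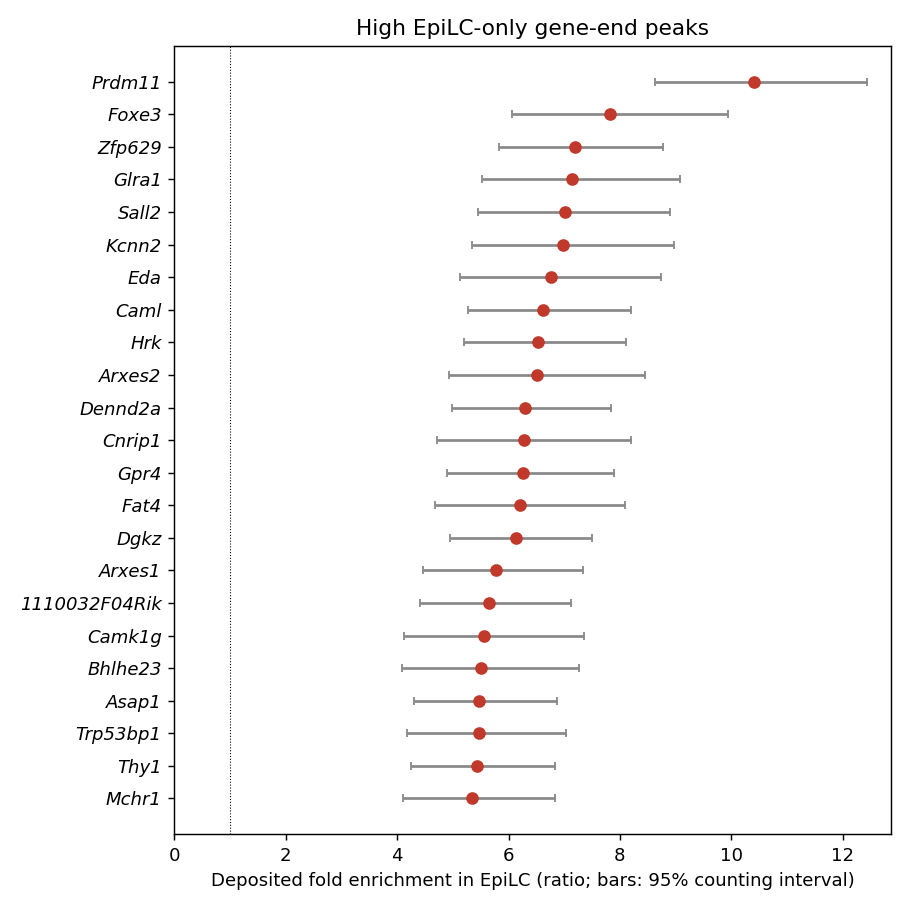
Deposited fold enrichment in EpiLC (x axis, ratio) of EpiLC-only gene-end peaks among the 25 with the highest fold, named by gene, for the genes given in the text; points are the authors' values and bars are 95% counting intervals. Prdm11 stood at 10.4 and the others shown lay between 5.34 and 7.83 with overlapping intervals.

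EpiLC-only gene-end peaks were found at many genes of primed pluripotency. Of 34 such genes, 10 had an EpiLC-only gene-end peak (29.4%, 15.1 to 47.5), against 1.44% of all coding genes. A shared peak was found at 0 of the 34 and a Naive-only peak at 0, against 2.48% and 10.3% of all coding genes. The list was drawn up with earlier results of these data known, so its count is not independent evidence. They were Sall2 (7.02), Pou3f1, the POU factor Oct6 (4.37, 3.13 to 5.96), Etv4 and Etv5, Ets factors induced by FGF (4.04 and 3.27), Sox4 (3.64) and Sox11 (2.66), Fgf5, the FGF ligand that marks the primed state (3.44, 2.43 to 4.72), Dnmt3b, a de novo DNA methyltransferase (3.39, 2.46 to 4.57), Grhl2, an epithelial factor (3.21), and Lefty1, a Nodal antagonist (2.33, 1.68 to 3.17). Most of these folds were ordinary for the EpiLC-only peaks, with Sall2 alone above 5.

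Genes of the naive and core networks were counted in the same way, beside 1.44% EpiLC-only, 2.48% shared and 10.3% Naive-only over all coding genes. Of 25 naive pluripotency genes, 1 had an EpiLC-only peak, 0 a shared and 13 a Naive-only peak. The 1 gene was Tbx3 (3.06, 2.13 to 4.29), which also had 2 separate Naive gene-end peaks, the higher with a fold of 4.80. Of 16 core pluripotency genes, 2 had an EpiLC-only, 6 a shared and 8 a Naive-only peak. The 2 were Sall1, a spalt-like partner of Nanog (3.43 and 2.22 at its 2 peaks), and Utf1, a chromatin-bound stem cell factor (2.21, 1.59 to 3.00), and both also had a separate Naive peak at a gene end, at 5.80 and 4.83.

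Regulators of later lineages were counted in 3 lists, whose counting intervals overlapped. Over all coding genes the shares were 1.44% EpiLC-only, 2.48% shared and 10.3% Naive-only. The EpiLC-only intervals of the mesoderm and endoderm list and of the trophectoderm and fibroblast list included the 1.44%. Of 24 neuroectoderm genes, 6 had an EpiLC-only peak (25%, 9.77 to 46.7), 1 a shared and 2 a Naive-only peak. Pax7, a paired-box factor of neural crest and muscle, had 4.82 (3.53 to 6.43) over a peak of 974 bp, among the widest. The forebrain factor gene Six3 had 3.89, and Lhx5, Dlx5 and Pax3 had 3.22, 3.14 and 2.79. Of 20 mesoderm and endoderm genes, the endoderm factor gene Gata6 alone had an EpiLC-only peak (2.67; 5%, 0.127 to 24.9), with 0 shared and 0 Naive-only. Of 19 trophectoderm and fibroblast genes, Thy1 (5.43) and the trophectoderm factor gene Gata3 (3.08) had EpiLC-only peaks (10.5%, 1.30 to 33.1), 0 had shared and 3 had Naive-only peaks.

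Transcription factor families were counted as well, beside 1.44% EpiLC-only, 2.48% shared and 10.3% Naive-only over all coding genes. Among 177 homeobox genes, 20 had an EpiLC-only peak (11.3%, 7.04 to 16.9), 5 a shared and 8 a Naive-only peak. The highest was the LIM factor gene Isl2 (4.92, 3.70 to 6.42), followed by Pax7 and Pou3f1. Barhl2 (4.15), Barhl1 (3.36), Emx1 (3.83), Vax2 (3.18), Dlx2 (3.03) and Uncx (2.80) were others, as were the Hox genes Hoxc6 (3.95), Hoxd3 (3.62), Hoxc11 (3.51), Hoxb2 (3.45), Hoxc8 (3.22) and Hoxb6 (2.97). Of 44 forkhead genes, 5 had an EpiLC-only, 2 a shared and 1 a Naive-only peak; they included Foxe3, Foxc1 (3.37), Foxp1 (2.97) and Foxo3 (2.93). Of 102 T-box, basic helix-loop-helix, Ets, Gata and Tfap2 genes, 11 had an EpiLC-only (10.8%), 3 a shared and 9 a Naive-only peak, led by Bhlhe23, Etv4 and the hair cell and cerebellar factor gene Atoh1 (3.53). Of 19 Sox genes, Sox4 and Sox11 had an EpiLC-only peak, 1 a shared and 1 a Naive-only peak, while 0 of 5 Zic genes had any of the 3 kinds.

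Taking these families as one set of 347 of the 21883 coding genes, 38 had an EpiLC-only peak (11.0%), 11 a shared peak (3.17%) and 19 a Naive-only peak (5.48%). The shares over all coding genes were 1.44%, 2.48% and 10.3% in the same order. These factors were 12.1% of the genes with EpiLC-only peaks, 2.03% of those with shared peaks and 0.840% of those with Naive-only peaks. Their peaks were no higher than the rest: the median fold was 3.30 for these factors and 3.39 for the other EpiLC-only peaks. For C2H2 zinc finger genes the counts were 12 of 530 EpiLC-only (2.26%, 1.18 to 3.92), 18 shared and 107 Naive-only. The EpiLC-only interval of the C2H2 genes included the 1.44% over all coding genes. After Prdm11, Zfp629 and Sall2, the C2H2 genes with EpiLC-only peaks included Bcl11b (3.32), Egr3 (3.29), Sp3 (2.57) and Zbtb7b (2.06).

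**Figure D4:**
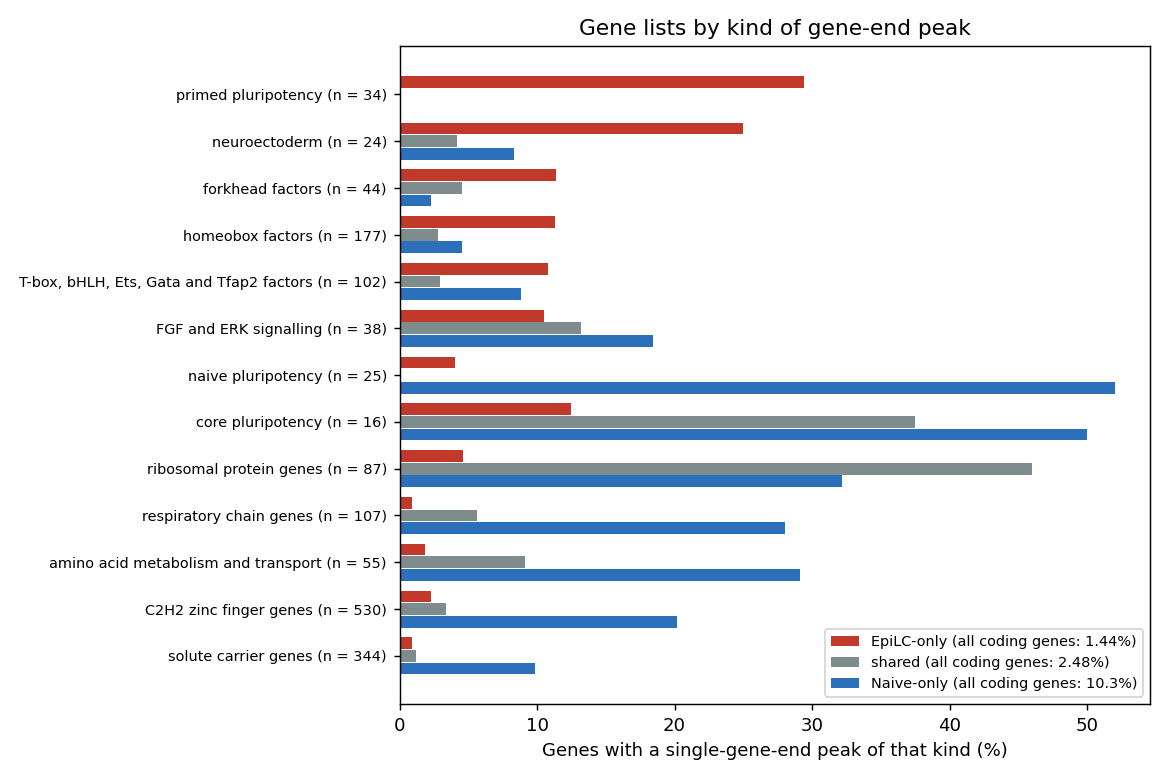
Share of the genes of a list (x axis, percent) that had an EpiLC-only, a shared or a Naive-only single-gene-end peak, for 13 lists with their numbers of genes; no bar means 0, and the legend gives the shares over all coding genes. Primed pluripotency (29.4%) and neuroectoderm genes (25%) had the tallest EpiLC-only bars, and naive pluripotency genes the tallest Naive-only bar (52.0%).

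For signalling genes the shares are to be read against 1.44% EpiLC-only, 2.48% shared and 10.3% Naive-only over all coding genes. Of 38 FGF and ERK genes, 4 had an EpiLC-only (10.5%, 2.94 to 24.8), 5 a shared and 7 a Naive-only peak, and the 4 were Etv4, Fgf5, Etv5 and the immediate early gene Ier2 (2.55). Of 49 Wnt, Nodal and BMP genes, 2 had an EpiLC-only (4.08%, 0.498 to 14), 1 a shared and 6 a Naive-only peak, and the 2 were the Wnt receptor gene Fzd8 (3.46) and Lefty1. In the group of semaphorin, ephrin, netrin, slit, plexin and Notch genes 2 of 82 were EpiLC-only, Notch3 (2.98) and its ligand gene Dll4 (2.55), beside 2 shared and 7 Naive-only. Members outside these lists included the neurotrophin genes Ntf3 (4.19) and Bdnf (3.76) and the paired X- and Y-linked helicase genes Ddx3y (5.10, 3.71 to 6.85) and Ddx3x (3.91, 2.71 to 5.48), which were picked out after their values were seen.

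Adhesion, channel and matrix genes had EpiLC-only shares whose counting intervals included the 1.44% over all coding genes. The all-gene shares for shared and Naive-only peaks were 2.48% and 10.3%. For 131 cadherin, protocadherin and integrin genes the counts were 5 EpiLC-only (3.82%, 1.25 to 8.68), 1 shared and 3 Naive-only, and the 5 were Fat4, the integrin genes Itgb1 (3.8), Itgb8 (3.44) and Itgb5 (3.41), and Pcdh7 (3.22). For 252 channel genes they were 6 (2.38%, 0.879 to 5.11), 0 and 10. The EpiLC-only ones included Glra1, Kcnn2, the glutamate receptor gene Gria3 (4.03), Asic4 (3.44) and Kcnf1 (3.03). For 120 collagen, laminin and matrix genes they were 3, 3 and 2, with Col16a1 (3.88), Tnr (3.58) and Lama4 (3.15) as the EpiLC-only genes.

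For growth and metabolism genes the counting interval of each EpiLC-only share included the 1.44% over all coding genes. Shared and Naive-only counts are to be read beside 2.48% and 10.3% over all coding genes. The Naive-only share of solute carrier genes was 9.88%. Of 87 ribosomal protein genes, 4 had an EpiLC-only (4.60%, 1.27 to 11.4), 40 a shared and 28 a Naive-only peak, and the EpiLC-only ones included Rps10 (2.98), Rps6 (2.82) and Rps14 (2.30). Amino acid metabolism, named in the title of the series, was represented by 1 of 55 genes (1.82%, 0.0460 to 9.72), Slc6a9, which encodes the glycine transporter GlyT1 (3.45, 2.53 to 4.60), against 5 shared and 16 Naive-only. Iron handling had 1 of 19, the iron exporter gene Slc40a1 (2.69, 1.88 to 3.75), against 1 shared and 5 Naive-only. Solute carrier genes as a whole had 3 of 344 (0.872%), against 4 shared and 34 Naive-only; the third was Slc45a4 (2.65). Respiratory chain genes had 1 of 107, Sdhb (3.56), against 6 shared and 30 Naive-only, and mitochondrial ribosomal protein genes 0 of 78, against 3 and 17.

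For chromatin genes the EpiLC-only intervals also included 1.44%. Beside their shared and Naive-only counts stand the all-gene shares of 2.48% and 10.3%. Histone and DNA modifying enzymes and remodellers had 6 of 165 EpiLC-only (3.64%, 1.35 to 7.75), 14 shared and 29 Naive-only; the histone demethylase gene Kdm5b was highest (4.82), followed by Mbd5 (3.60) and Dnmt3b. The DNA methylation list had 1 of 17 (Dnmt3b), 1 shared and 3 Naive-only. Histone genes had 1 of 103 (H2ac10, 2.63), 18 shared and 9 Naive-only. Kinesin, myosin, dynein and tubulin genes had 1 of 139 (Tubg2, 2.35), 5 and 17, and ubiquitin ligase genes 3 of 330, 7 and 34, with Fbxo41 (4.43), Fbxl12 (3.90) and Trim6 (3.19) as the EpiLC-only ones.

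Most EpiLC-only peaks with a known gene direction sat at the start of the gene. The strand was given for 233 of the 323 peaks through the promoter windows. Of these, 206 lay nearer the start (88.4%, 83.6 to 92.2) and 27 nearer the stop, against 434 of 451 shared peaks nearer the start (96.2%, 94.0 to 97.8) and 94.9% of Naive-only peaks. Among the 25 highest, Foxe3 and Bhlhe23 had their peaks at the stop. The counting intervals of the EpiLC-only and shared sets did not meet. With repeated promoters left out, 192 of 212 EpiLC-only peaks lay nearer the start (90.6%). Shared peaks were not recounted in this way, so whether the intervals stay apart was not tested.

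Their summits were also more spread around the gene end. The median distance from summit to gene end was 377 bp in EpiLC-only (quartiles 207 and 620) and 244 bp in shared peaks (130 and 453). Within 250 bp lay 31.6% of EpiLC-only summits (26.5 to 37.0) and 51.2% of shared summits (46.9 to 55.4). Of the 206 at a start, 92 were upstream of it (44.7%), and 172 of all 323 lay inside the gene (53.3%). An end of a noncoding gene also lay within 1 kb of 48 summits (14.9%). The 3 members nearest the edge of the 1 kb window were Gm40365 (984 bp, fold 1.57), Pou3f1 (967 bp, 4.37) and Arl8a (964 bp, 3.21). Just outside it lay EpiLC-only peaks at Hand1 (1001 bp, 5.15), Trp53bp1 (1019 bp, 4.54) and Has2 (1021 bp, 7.15), of which the last 2 genes also had a peak inside the window.

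**Figure D5:**
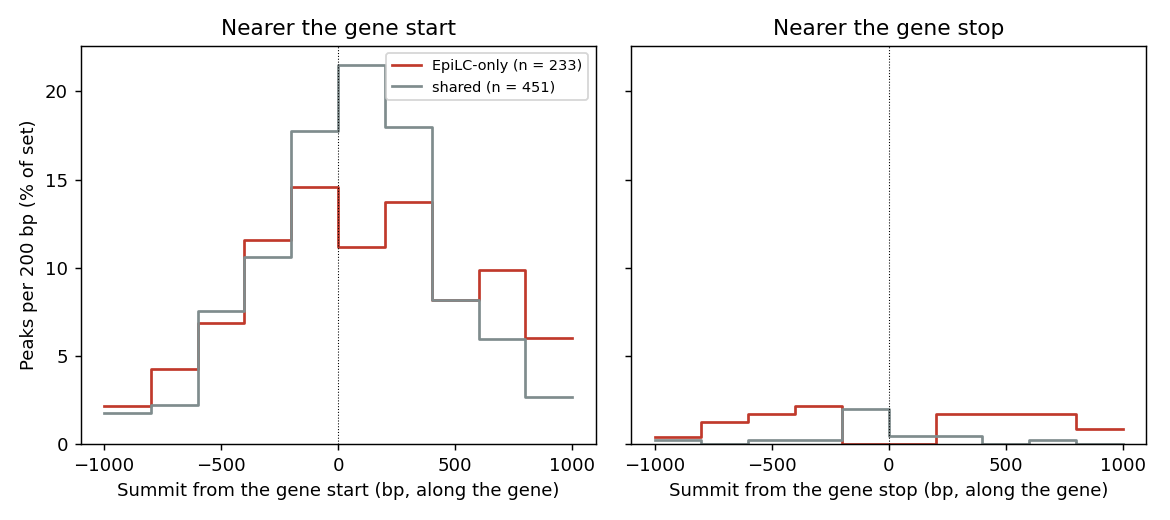
Share of EpiLC-only and shared gene-end peaks (y axis, percent of the set per 200 bp) by position of the summit along the gene (x axis, bp; negative is upstream), from the gene start in the left panel and from the gene stop in the right panel. EpiLC-only peaks were spread more evenly around the start, with a median distance to the gene end of 377 bp, and shared peaks crowded near it, with a median of 244 bp.

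The promoters of genes with EpiLC-only peaks were less often CpG-rich than those of the other peak sets. Over peaks at gene starts, 120 of 204 EpiLC-only promoter windows were CpG-rich (58.8%, 51.7 to 65.7; GC of at least 50% and an observed over expected CpG ratio of at least 0.6), against 79.3% of shared (75.2 to 83.1), 75.9% of Naive-only and 45.2% of all windows. Median GC was alike, at 61.0%, 60.7%, 60.3% and 56.3% in the same order. The C-rich word CCCTCCC, on either strand, was in 86 of 204 EpiLC-only windows (42.2%, 35.3 to 49.3), 32.3% of shared (27.9 to 37.0), 24.2% of Naive-only and 24.9% of all. For CCCCC the shares were 72.5%, 69.1%, 59.6% and 54.9%, where CCCCC can overlap CCCTCCC only in part. For both words the intervals of the EpiLC-only and shared windows overlapped.

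The other words searched are bound by general promoter factors or stem cell factors. CCGGAAG, an Ets word, was in 12.7% of EpiLC-only (8.5 to 18.1), 21.1% of shared (17.3 to 25.4), 24.4% of Naive-only and 11.6% of all windows. CACGTG, the E-box, was in 6.37%, 10.5%, 12.0% and 7.84%, and GGGCGGG, the Sp word, in 45.1%, 48.5%, 44.8% and 33.9%. The NRF1 word was in 2 EpiLC-only and 11 shared windows, TGACGTCA, the CRE, in 8 and 25, TATAAA in 14 and 42, CATTGTT, a Sox word, in 4 and 7, ATGCAAAT, the octamer, whose complement ATTTGCAT gives the same count, in 3 and 6, and the Zfp143 word in 0 and 3, where 0 of 204 allows a share of up to 1.79% by its exact interval. All were searched on both strands. A match is a match of letters in a window that need not hold the summit: the summit itself lay in such a window for 49 of 233 EpiLC-only peaks (21.0%).

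Some EpiLC-only gene-end peaks lay near a Naive peak. The gap to the nearest Naive peak had a median of 39712 bp (quartiles 8698 and 99112), against 79529 bp for EpiLC-only peaks away from gene ends. A Naive peak lay within 1 kb of 49 EpiLC-only gene-end peaks (15.2%, 11.4 to 19.6), against 4.91% (3.86 to 6.16) of those away from gene ends. The gap was not measured from coding gene ends in general. Whether gene ends without an EpiLC-only peak are as near to Naive peaks was therefore not tested. The closest was at Irf2bpl, 8 bp from a Naive peak, followed by the Tudor-domain gene Tdrkh (63 bp), the enolase gene Eno1 (68 bp), Rps14 (99 bp) and the calmodulin gene Calm2 (133 bp). Under the alternative that counted Naive peaks within 1 kb as overlapping, these became shared and 274 EpiLC-only peaks were left. The most isolated were Erich6 (985134 bp), Fat4 (909485 bp), the hyaluronan synthase gene Has2 (788096 bp), Fzd8 (741339 bp) and Msl3, of the male-specific lethal complex (737296 bp).

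For 43 of 315 genes the Naive list had another peak at an end of the same gene (13.7%, 10.1 to 17.9), and 9 genes also had a shared gene-end peak. Over all coding genes, 10.3% had a Naive-only and 2.48% a shared single-gene-end peak. The share of all coding genes with any Naive gene-end peak was not counted, so the 13.7% is not shown to be particular to this set. Among the 43 genes, the 5 with the highest EpiLC fold were Mpp2 (5.26 in EpiLC, 5.01 at the separate Naive peak), Gm3173 (5.14 and 5.84), Wwc2 (5.10 and 7.43), the fatty acid oxidation gene Hadha (5.09 and 7.81) and Nol12 (4.83 and 5.67). Of these, Wwc2 and Nol12 also had a gene-end peak that overlapped between the states.

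How weak a peak each list could call bears on every EpiLC-only peak. The lowest background was 7.43 fragments in EpiLC and 4.0 in Naive, and at these values the smallest coverage that would be called was 22 and 14 fragments, a fold of 2.73 and 3.00. Of the 323 EpiLC-only peaks, 238 had an EpiLC fold at or above 3.00 (73.7%, 68.5 to 78.4), and in 78 (24.1%) the lower counting bound was above it too. The rest had a fold under the smallest one callable in Naive at that background. For them a lack of Pcbp1 in Naive cannot be told apart from shallower coverage. Among the primed genes, Sox11 (2.66) and Lefty1 (2.33) were of this kind. For the peaks at or above 3.00, the missing call does not show a lack of Pcbp1 in Naive either. Where the local background is higher, smaller folds can be called, and the Naive background at positions without a Naive peak is not known here.

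More than 1 EpiLC-only peak was found at 7 genes. Nrn1, which encodes the neural surface protein neuritin, had 3 (3.91, 3.72 and 3.37). Isl2 (4.92 and 2.93), Hoxc11 (3.51 and 2.87), Hoxb2 (3.45 and 3.43), Hoxb6 (2.97 and 2.62), Sall1 (3.43 and 2.22) and the nuclear import receptor gene Tnpo2 (3.22 and 3.02) had 2 each. The widest peaks were at Sinhcaf, of the Sin3 complex (980 bp), Pax7 (974 bp), Gm3248 (931 bp), Hoxc8 (867 bp) and H2ac10 (776 bp), against a median of 290 bp. At Sinhcaf an end of the noncoding gene 3010003L21Rik also lay within 1 kb of the summit.

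Some members stood in repeated sequence, where a read cannot be assigned to one copy. Of the 230 genes with a promoter window, 21 shared at least 50% of its 31-base words with another gene's window. On chromosome 14, 13 predicted Gm genes between 3049632 and 7488238 had peaks (fold 2.66 to 5.14, median background 14.2), and on chromosome 4, 5 Gm genes between 88777521 and 88805353 had peaks (2.26 to 3.36, median background 22.8). The lowest folds of all were at Gm40365 (1.57), Duxf3 (1.60) and Gm40369 (1.77), over a summit coverage of 115 to 140 fragments, and at Zbtb7b (2.06) and Bcam (2.10). Arxes2 and Arxes1, adipocyte-related genes on chromosome X that arose by duplication, are shown because both rank among the 25 highest and both hold GGGTTAA. Their windows were identical over 300 bases, so their 2 peaks may be reads of either copy.
Arxes2 (chrX:135993711-135993771, plus strand): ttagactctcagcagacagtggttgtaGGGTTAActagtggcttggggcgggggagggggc
Arxes1 (chrX:136033258-136033318, plus strand): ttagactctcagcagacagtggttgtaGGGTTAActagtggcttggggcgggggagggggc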

How the data were processed

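Pcbp1 ChIP-seq of EpiLC and naive cells gave 1 peak list per condition, each from 1 ChIP library. The submitters' processing notes list MACS2, Bowtie2, fastp and Picard for build GRCm38 (mm10), without versions or order. Neither the caller's control nor the depth is known here. The fold (a ratio over background), the −log10 p-value and −log10 q-value, the score and the other column used, the summit offset, are the authors' deposited values.

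Overlap was 1 bp or more. Genes and promoter windows were RefSeq tables of GRCm38.p6; gene strand came from the promoter windows. Coverage and background were solved from deposited fold and p (Poisson) within 0.001 of −log10 p, which succeeded for 3493 of 3494 EpiLC and 12132 of 12132 Naive peaks and all members. Intervals are 95% Poisson for folds and exact binomial (Clopper-Pearson) for shares; the code was tested on simulated data. Python 3.11.15, numpy 2.4.6, scipy 1.17.1, pandas 2.3.3 and matplotlib 3.10.9 were used.

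The members, gene lists and word lists were chosen with earlier results of these data known. Named were the 25 highest folds, up to 4 members of each pathway or lineage list and up to 3 of each gene family by fold (more are given here for some lists), genes with several peaks, the 5 lowest, widest, nearest to and farthest from Naive peaks, the 5 highest with a separate Naive peak, and the 3 on either side of the window edge; some genes that this rule takes, and 1 gene family, are not reported here. The sequence word GGGTTAA, Ddx3x, Ddx3y, Bdnf and Ntf3 were picked after the data were seen. Alternatives changed the peak threshold, the overlap, the window and the summit.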

Additional observations from a re-analysis of the deposited data

How the results depend on the processing

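The 8 summary results were recomputed under up to 10 other settings, and 59 of 73 values stayed within a set range of the main value. The range was 1.5 times a count, the counting interval of a share, or a range around a median. The last was narrower than the quartiles: a median fold of 3.60, inside the quartiles of 2.97 and 4.0, counted as moved. With a fold of at least 4, 81 peaks remained in place of 323, with a median fold of 4.83, a separate Naive peak at 9.88% of genes, a median Naive distance of 58313 bp, 3 primed genes and 4 homeobox genes. A −log10 q of at least 5 gave a median fold of 3.60. When sharing required an overlap of 50% of the EpiLC peak, a Naive gene-end peak was found at 21.5% of genes and the distance was 29898 bp. Both values then take in Naive peaks that overlapped the EpiLC peak by less than 50%, which are not separate peaks. When a Naive peak within 1 kb counted as shared, a separate Naive peak was found at 3.36% of genes and the distance was 51860 bp. With summits within 500 bp, 5 primed and 12 homeobox genes were left. Keeping only peaks with a fold callable in Naive, a setting chosen after seeing the data, gave a median fold of 3.63. Leaving out repeated promoters, also chosen after seeing the data, left 302 peaks. The smaller counts follow from fewer peaks entering. No paired analysis was possible because each condition had 1 ChIP library, and for the same reason no replicate could be left out. At its lowest background the Naive list could not call folds below 3.00, while over higher backgrounds it held folds down to 1.52. The depth of the libraries is not known here.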
